A study of Homo sapiens with 9 samples.

Results

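The genes described here are the EGF receptors EGFR, ERBB2 and ERBB3, the receptor tyrosine kinase MET and the EGF-like ligands AREG, EREG, HBEGF, TGFA, BTC and EPGN, measured as newly made RNA in the human pancreatic cancer cell line PANC-1. They were taken by symbol from the tables of all libraries, 10 of 57733 genes, 4 of them receptors and 6 of them ligands. KO C22 and KO C28 are PANC-1 clones made with CRISPR/Cas9 against KDM6A (UTX), a histone demethylase gene, and WT is a PANC-1 line that received no guide RNA. Each knockout line is 1 clone, so what belongs to the knockout and what belongs to the clone cannot be told apart. All cells were given 2 mM bromouridine during 30 min and were collected 0 h later, and the bromouridine-bearing RNA was captured and sequenced (Bru-seq). In BruUV-seq the cells also received 100 J/m2 of UV light, which stalls polymerases and gathers signal near the starts of genes. Each line has 2 Bru-seq libraries and 1 BruUV-seq library, 9 in all.

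The EGF-like ligands are made as precursors in the cell membrane and are cut loose by metalloproteases of the ADAM family. AREG, TGFA and EPGN bind EGFR, while EREG, HBEGF and BTC also bind ERBB4. Bound receptors pair up, often with ERBB2, which has no known ligand of its own, and signal through RAS to the MAP kinases. MET is the receptor of hepatocyte growth factor and signals through many of the same carriers. The genes of several EGF-like ligands are themselves switched on by MAP kinase signalling.

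Estimated reads in genes ran from 14.4 to 31.1 M per library, apart from Bru-seq KO C28 replicate 2 with 5.64 M. That library stood apart: 46.5% of its reads lay outside genes, against 9.93% to 20.01% in the other 8 libraries. Its 5 leukocyte markers summed to 17.6 CPM and its 3 endothelial markers to 17.4 CPM, against 0.393 to 4.52 and 0.637 to 3.39 CPM in the others. CPM here is the estimated reads of a gene scaled to library size with TMM factors. The part of these differences in the results below was not tested, and the main values of KO C28 are given with and without that library. The 7 PANC-1 markers (keratins, EPCAM, CDH1 and VIM) were above 0 in every library and summed to 624 to 3350 CPM. The 4 fibroblast markers summed to 1.87 to 38.5 CPM, highest in KO C22 BruUV-seq, and those of acinar and islet cells to at most 0.609 and 1.58 CPM. KDM6A itself stood at 286 and 426 CPM in KO C22 Bru-seq and 336 and 64.8 CPM in KO C28, against 322 and 275 CPM in WT, and reads summed over a gene do not show a small lesion. Nothing in the labels says whether replicates came from separate cultures, so the p-values here measure only the spread among these samples, which may be technical.

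Promoter windows of 300 bases (250 before to 50 after the start) were found for 9 of the 10 genes in RefSeq on GRCh38.p14, 11 windows in all, each printed 5′ to 3′ on the strand of its gene. Those of EREG and AREG are shown because these neighbours on chromosome 4 both lay lower in every KO C22 library than in WT of the same assay, and those of TGFA and HBEGF because they are the ligands with the largest differences between lines in Bru-seq. Capitals mark the TATA box TATAAA and the cyclic AMP response element (CRE) TGACGTCA. The AP-1 sites TGAGTCA and TGACTCA and the GC box GGGCGG were searched too, on both strands like the others, and a GC box is left in lower case.

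EREG (chr4:74364895-74365194, plus strand): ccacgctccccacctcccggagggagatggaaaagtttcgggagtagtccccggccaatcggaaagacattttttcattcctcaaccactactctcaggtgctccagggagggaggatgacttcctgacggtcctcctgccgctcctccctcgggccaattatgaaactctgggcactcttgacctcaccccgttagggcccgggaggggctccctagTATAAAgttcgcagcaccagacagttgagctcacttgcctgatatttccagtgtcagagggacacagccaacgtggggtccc
AREG (chr4:74444886-74445185, plus strand): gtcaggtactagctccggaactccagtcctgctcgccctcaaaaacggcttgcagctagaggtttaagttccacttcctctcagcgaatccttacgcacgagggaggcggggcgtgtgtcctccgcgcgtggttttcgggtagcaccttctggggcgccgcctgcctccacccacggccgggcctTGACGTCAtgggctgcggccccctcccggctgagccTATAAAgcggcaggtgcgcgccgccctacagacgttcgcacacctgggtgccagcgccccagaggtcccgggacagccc
TGFA (chr2:70553777-70554076, minus strand): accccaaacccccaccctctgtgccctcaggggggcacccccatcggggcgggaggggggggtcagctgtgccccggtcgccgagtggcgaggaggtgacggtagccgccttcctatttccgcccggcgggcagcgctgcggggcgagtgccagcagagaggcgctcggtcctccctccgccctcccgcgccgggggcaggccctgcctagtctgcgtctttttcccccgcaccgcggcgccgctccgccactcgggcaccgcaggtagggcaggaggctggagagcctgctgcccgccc
HBEGF (chr5:140346554-140346853, minus strand): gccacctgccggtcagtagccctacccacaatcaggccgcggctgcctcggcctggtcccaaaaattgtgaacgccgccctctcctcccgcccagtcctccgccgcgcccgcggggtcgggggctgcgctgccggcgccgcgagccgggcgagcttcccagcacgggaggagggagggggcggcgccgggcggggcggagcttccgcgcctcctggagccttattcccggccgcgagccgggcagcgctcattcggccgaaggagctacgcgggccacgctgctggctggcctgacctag

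EREG and AREG each held a TATA box, beginning 32 and 29 bases before the start, and so did EPGN, which lies beside them, at 29 bases. Of the 35116 promoter windows in the table, 11.5% held these letters. AREG also held a CRE beginning 65 bases before its start, found in 1.85% of windows. The TGFA and HBEGF windows shown held neither, nor an AP-1 site (4.95% of windows), and were 75.3% and 75% G and C, with GC boxes at 4 and 5 places (44.95% of windows hold at least 1). AREG held a GC box as well, and EREG and AREG were 57.7% and 66.3% G and C. Another TGFA window held none of these motifs and was 63% G and C. The RefSeq start shown for TGFA lies 189 bases from that of the deposited tables, and those of EREG, AREG and HBEGF lie 2, 2 and 28 bases away. The second EGFR window, at a start inside the gene, held both AP-1 spellings. These matches are letters in a window and show no binding.

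Levels between genes were compared per length, as the authors' deposited RPKM. In WT Bru-seq EGFR stood highest at 3.86 ± 0.0203 RPKM, followed by MET at 2.53 ± 0.104 RPKM (SD, n = 2). HBEGF at 1.81 ± 1.54, EREG at 1.69 ± 0.602, AREG at 1.20 ± 0.907 and TGFA at 0.765 ± 0.228 RPKM came next, and ERBB2 followed at 0.267 ± 0.0492 RPKM. From MET down to TGFA the range of mean ± SD of each gene overlapped that of the next. EGFR over MET and TGFA over ERBB2 were apart by more than their SDs. ERBB3, BTC and EPGN were the lowest, at 0.0434, 0.0203 and 0.0126 RPKM, on means of 16.6, 26.2 and 3.78 reads over the 9 libraries, too few for a fold change. EGFR in WT stood above 92.9% of the 22827 genes tested in Bru-seq, and ERBB2 above 42.3%.

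The order differed between lines. In KO C22, HBEGF stood highest at 5.25 ± 0.806 RPKM, ahead of EGFR at 4.13 ± 1.07 and MET at 2.27 ± 0.00568 RPKM, and EREG followed at 0.344 ± 0.117 RPKM. The ranges of mean ± SD of HBEGF and EGFR overlapped there, and those of EGFR and MET did not. TGFA, AREG and ERBB2 were at 0.161 ± 0.0415, 0.146 ± 0.0256 and 0.0977 ± 0.00132 RPKM. In KO C28 the order began with EGFR at 2.21 ± 1.58, MET at 1.43 ± 0.937, EREG at 0.863 ± 0.675 and HBEGF at 0.608 ± 0.266 RPKM, and these neighbours lay within each other's spread. TGFA, at 0.0693 ± 0.0354 RPKM, came seventh there.

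**Figure D1:**
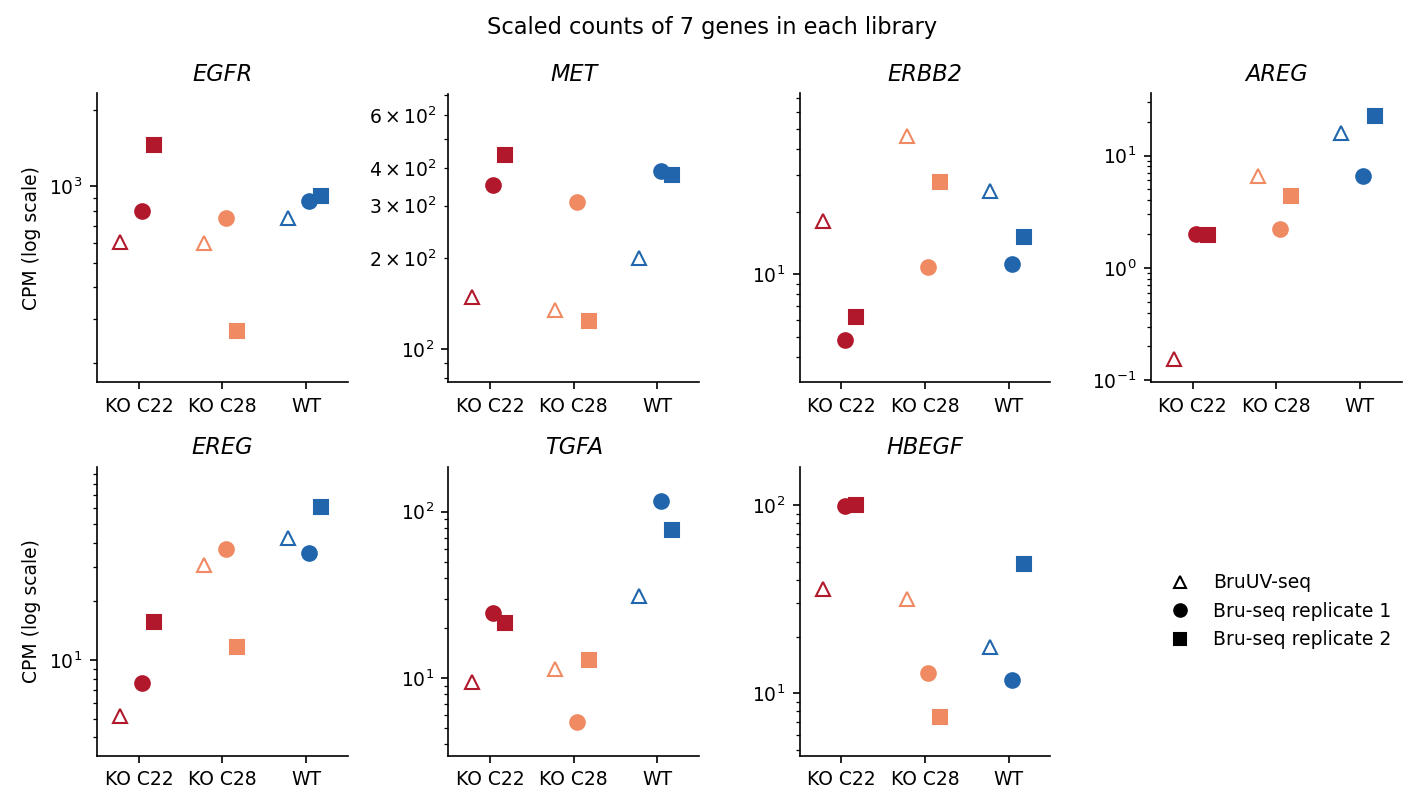
Scaled counts (CPM, log axis, a separate range for each gene) of the 7 genes with enough reads for a fold change, in KO C22, KO C28 and WT. Each point is 1 library: open triangles are BruUV-seq, filled circles and squares Bru-seq replicates 1 and 2. TGFA lies lower in every KO library than in the WT libraries of the same assay, and HBEGF lies at 98.8 and 99.8 CPM in KO C22 Bru-seq.

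None of the 10 genes passed the test on the 6 Bru-seq libraries in any comparison of lines (edgeR quasi-likelihood test, Benjamini-Hochberg adjusted p below 0.05 over 22827 genes). That test called 0.00438% of all genes in KO C22 against WT, 0.00438% in KO C28 against WT and 0% in KO C28 against KO C22. With all 9 libraries in 1 fit, line and assay as terms, 9 of the 10 were tested among 20819 genes and again 0 passed, where 0.178%, 0.125% and 0% of all genes did. DESeq2 on the same 9 libraries called 3 of the 9 in KO C22 against WT (1.67% of all genes), 1 in KO C28 against WT (3.42%) and 1 in KO C28 against KO C22 (1.1%). At an unadjusted p below 0.05 in Bru-seq stood TGFA, EREG, AREG and HBEGF in KO C22 (2.01% of all genes), TGFA, AREG and HBEGF in KO C28 (6.28%), and ERBB2, TGFA and HBEGF between the clones (3.27%). With both assays these were TGFA, EREG, AREG and HBEGF in KO C22 (5.86%), TGFA in KO C28 (10.5%), and ERBB2, EREG and HBEGF between the clones (5.71%). The median log2 fold change of the 10 genes was -0.62 in KO C22 and -0.92 in KO C28, with 5 and 3 above WT, against medians of 0.07 and -0.08 over all genes. Without KO C28 replicate 2 the KO C28 median was -0.44, against -0.096 over all genes. These medians and counts include ERBB3, BTC and EPGN, whose reads are too few for a fold change.

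EGFR, the receptor that the ligands share (chr7:55019021-55211628, plus strand), gave 801 and 1456 CPM in KO C22 Bru-seq and 751 and 270 CPM in KO C28, against 879 and 913 CPM in WT. The KO C22 libraries lie on either side of the WT libraries, and both KO C28 libraries lie below them, the shallow one by far. BruUV-seq gave 605 CPM in KO C22 and 595 CPM in KO C28, against 750 CPM in WT. The log2 fold change over WT was 0.32 in KO C22 (SE 0.93) and -0.86 in KO C28 (SE 0.94) in Bru-seq (edgeR adjusted p = 1 and 0.842). Without KO C28 replicate 2 the KO C28 value was -0.32, above its value with both replicates. In KO C22 the sign turned to -0.26 with an offset for each library's trend with gene length.

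MET (chr7:116672392-116798386, plus strand) showed a like picture. It gave 351 and 442 CPM in KO C22 Bru-seq and 309 and 124 CPM in KO C28, against 389 and 379 CPM in WT. KO C22 spans the WT libraries and KO C28 lies below them. BruUV-seq gave 149 CPM in KO C22 and 135 CPM in KO C28, against 200.3 CPM in WT. Over WT the Bru-seq log2 fold change was 0.03 in KO C22 (SE 0.76) and -0.88 in KO C28 (SE 0.77) (edgeR adjusted p = 1 and 0.811), and the KO C28 value was -0.37 without replicate 2. CAPZA2, 64.1 kb from MET, lay at 0.14 in KO C22 and -0.36 in KO C28 on the same scale.

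ERBB2, the partner receptor (chr17:39687914-39728662, plus strand), was lowest in KO C22. Its Bru-seq libraries held 4.85 and 6.20 CPM in KO C22 and 10.8 and 27.7 CPM in KO C28, against 11.2 and 15.01 CPM in WT. BruUV-seq held 17.9 CPM in KO C22 and 46.2 CPM in KO C28, against 25.1 CPM in WT. KO C22 thus lies below WT in both assays, and KO C28 spans WT in Bru-seq and lies above it in BruUV-seq. In Bru-seq the log2 fold change was -1.27 in KO C22 (SE 0.76) and 0.44 in KO C28 (SE 0.75) over WT (edgeR adjusted p = 1 and 0.895). The KO C28 value turned to -0.34 without replicate 2.

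Between the clones, ERBB2 did not overlap in either assay, and the log2 fold change of KO C28 over KO C22 in both assays was 1.65 (SE 0.46, edgeR adjusted p = 0.539, from 0.0466 to 1 over the other settings). It was 1.22 without Bru-seq KO C28 replicate 2 and 2.13 without replicate 1. Of the 6 neighbours within 100 kb, none passed in that comparison (adjusted p from 0.544 to 0.946). MIEN1, 0.494 kb away, had 2.27 (SE 0.72), PPP1R1B 3.72 (SE 1.07) and GRB7 2.05 (SE 0.93), while STARD3 had 0.54 (SE 0.40), PGAP3 0.24 (SE 0.60) and IKZF3 -0.23 (SE 0.73). PGAP3, with a mean of 189 reads, overlaps the start of ERBB2 on the other strand. The protocol marks strand only in some samples, so reads of ERBB2 (a mean of 321) and PGAP3 may not have been kept apart.

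ERBB3, the receptor with a weak kinase that pairs with ERBB2 (chr12:56079861-56103505, plus strand), was close to silent. Bru-seq gave 0 and 11 reads in KO C22 and 3 and 10 reads in KO C28, against 12 and 47 reads in WT. BruUV-seq gave 19 reads in KO C22 and 4 reads in KO C28, against 43 reads in WT.

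Among the ligands, TGFA stood lower in every KO library than in the WT libraries of the same assay. TGFA (chr2:70447280-70554015, minus strand) encodes transforming growth factor alpha, a classic autocrine ligand of carcinoma cells. Bru-seq gave 24.7 and 21.4 CPM in KO C22 and 5.47 and 12.8 CPM in KO C28, against 116 and 78.1 CPM in WT. BruUV-seq gave 9.47 CPM in KO C22 and 11.4 CPM in KO C28, against 31.2 CPM in WT. Within Bru-seq the KO C28 libraries are the lowest, and within each assay no KO library overlaps WT. In reads, the Bru-seq libraries hold 459 and 484 in KO C22, with 86 and 105 in KO C28, against 2539 and 1908 in WT.

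The log2 fold change of TGFA over WT in Bru-seq was -2.10 in KO C22 (SE 0.62) and -3.52 in KO C28 (SE 0.66), with edgeR adjusted p of 1 and 0.514 (unadjusted p = 0.00593 and 0.000225). With both assays it was -1.98 (SE 0.50, adjusted p = 0.238) and -2.70 (SE 0.53, adjusted p = 0.0958). DESeq2 called it in KO C28 in both fits (adjusted p = 0.000434 in Bru-seq, where DESeq2 called 0.898% of all genes and the other settings ran from there to 1) and in KO C22 with both assays (0.0204, settings from 0.00643 to 1). Without Bru-seq KO C28 replicate 2 the KO C28 value was -4.20 in Bru-seq and -2.72 in both assays. Leaving out 1 library at a time gave -4.20 to -3.04 in KO C28 over WT in Bru-seq. In BruUV-seq, where each line has 1 library and there is no test, the ratio to WT was 0.303 (95% counting interval 0.248 to 0.367) in KO C22 and 0.365 (0.311 to 0.427) in KO C28. The clones share the WT libraries, so the comparisons are not independent of each other. Between the clones TGFA had -1.43 (SE 0.61, adjusted p = 0.959) in Bru-seq, with KO C28 below KO C22, and in BruUV-seq KO C28 lay above KO C22. The Bru-seq value was -2.04 without KO C28 replicate 2 and -0.96 without replicate 1.

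EREG, AREG, EPGN and BTC lie together on chromosome 4 between 74308473 and 74794686. MTHFD2L lies just outside that block, 5.37 kb from EPGN. EREG (chr4:74365143-74388751, plus strand) encodes epiregulin. Bru-seq gave 7.59 and 15.6 CPM in KO C22 and 37.1 and 11.7 CPM in KO C28, against 35.5 and 61.2 CPM in WT. BruUV-seq gave 5.16 CPM in KO C22 and 30.7 CPM in KO C28, against 42.2 CPM in WT. KO C22 lies below WT in both assays, and in KO C28 replicate 1 lies inside the WT range and the shallow replicate 2 below it. The log2 fold change over WT in both assays was -2.32 in KO C22 (SE 0.55) and -0.77 in KO C28 (SE 0.53) (edgeR adjusted p = 0.195 and 0.610). EREG in KO C22 passed without Bru-seq KO C28 replicate 2 (-2.36, SE 0.40, adjusted p = 0.0345; over all other settings 0.00136 to 0.992). On the Bru-seq libraries alone it had -2.08 (SE 0.76, adjusted p = 1) in KO C22 and -1.03 (SE 0.74, adjusted p = 0.766) in KO C28. Without KO C28 replicate 2 the KO C28 value was -0.45 in Bru-seq and -0.37 with both assays.

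AREG (chr4:74445134-74455009, plus strand) encodes amphiregulin and lies 56.4 kb from EREG. Bru-seq gave 1.99 and 1.95 CPM in KO C22 and 2.23 and 4.39 CPM in KO C28, against 6.58 and 22.3 CPM in WT. BruUV-seq gave 0.154 CPM in KO C22, which is 2 reads, and 6.51 CPM (116 reads) in KO C28, against 15.8 CPM (376 reads) in WT. All KO libraries lie below the WT libraries of their assay, and the WT replicates differ 3.39-fold from each other. Both assays together gave a log2 fold change of -3.49 in KO C22 (SE 0.93) and -1.73 in KO C28 (SE 0.85) (edgeR adjusted p = 0.295 and 0.507). The KO C28 value was -1.69 without Bru-seq KO C28 replicate 2. Leaving out 1 library at a time gave -4.01 (without Bru-seq WT replicate 1) to -2.77 (without BruUV-seq KO C22) in KO C22. In KO C28 it gave -2.46 (without BruUV-seq KO C28) to -1.21 (without Bru-seq KO C28 replicate 1). In BruUV-seq the ratio to WT was 0.00973 (95% counting interval 0.00117 to 0.0354) in KO C22 and 0.411 (0.331 to 0.508) in KO C28, with no replicate check. MTHFD2L, 62.04 kb from EREG and outside the block, lay at -0.57 in KO C22 (SE 0.42) and -0.60 in KO C28 (SE 0.42) with both assays.

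Of the other genes of the block, BTC (betacellulin, chr4:74744759-74794686, minus strand) gave 68 and 24 Bru-seq reads in KO C22, with 15 and 49 in KO C28, against 23 and 34 in WT. Its BruUV-seq libraries gave 0 reads in KO C22 and 14 in KO C28, against 9 in WT. EPGN (epigen, chr4:74308473-74315307, plus strand) gave 12 and 6 Bru-seq reads in KO C22, with 11 and 0 in KO C28, against 1 and 4 in WT, and 0 in all 3 BruUV-seq libraries. These counts are too few to order the lines.

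HBEGF (chr5:140332843-140346631, minus strand), the heparin-binding ligand that also serves as the receptor of diphtheria toxin, was the one ligand above WT in KO C22 with enough reads for a fold change. Bru-seq gave 98.8 and 99.8 CPM in KO C22 and 12.9 and 7.44 CPM in KO C28, against 11.7 and 48.9 CPM in WT. BruUV-seq gave 35.8 CPM in KO C22 and 31.6 CPM in KO C28, against 17.6 CPM in WT. KO C22 lies above WT in both assays, while KO C28 overlaps WT in Bru-seq and lies above it in BruUV-seq. The KO C22 replicates differ 1.01-fold and the WT replicates 4.18-fold.

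The log2 fold change of HBEGF over WT in Bru-seq was 1.68 in KO C22 (SE 0.73) and -1.64 in KO C28 (SE 0.73) (edgeR adjusted p = 1 and 0.728). These values rest on WT replicates that differ: they were 0.96 and -2.38 without WT replicate 1, and 3.09 and -0.25 without WT replicate 2. KO C28 over KO C22 was -3.33 (SE 0.78, unadjusted p = 0.0013, adjusted p = 0.959, from 0.0129 to 1.00 over the other settings). With both assays the values were 1.58 (SE 0.67) and -0.56 (SE 0.70) over WT, and -2.14 (SE 0.73) between the clones (adjusted p = 0.790, 0.789 and 0.735). That fit takes a line to differ alike in both assays. HBEGF in KO C28 lay below the WT mean in Bru-seq and above WT in BruUV-seq, so its values there describe neither assay. Leaving out KO C28 replicate 2 gave -1.32 in KO C28 over WT and -2.92 between the clones in Bru-seq, and without WT replicate 2 the KO C28 value with both assays turned to 0.23. In BruUV-seq the ratio to WT was 2.03 (95% counting interval 1.77 to 2.32) in KO C22 and 1.79 (1.57 to 2.04) in KO C28. PFDN1, 29.7 kb from HBEGF, lay at 0.94 in KO C22 (SE 0.68) and -0.38 in KO C28 (SE 0.68) in Bru-seq.

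**Figure D2:**
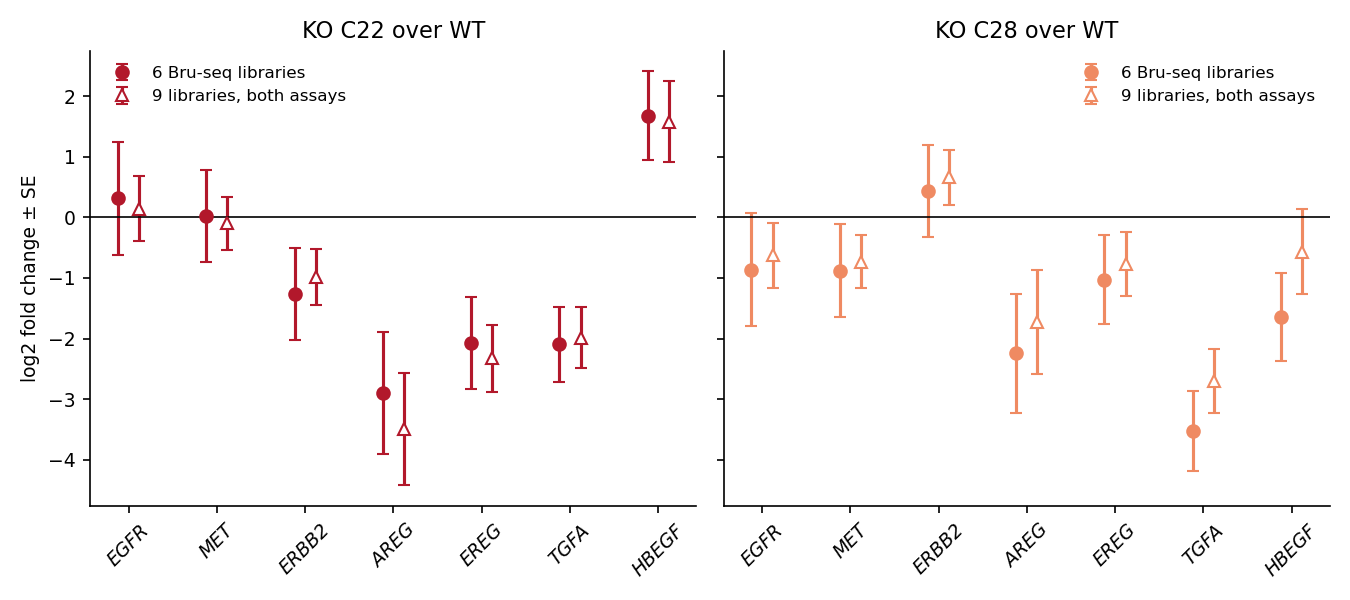
Log2 fold changes of the 7 genes in KO C22 (left) and KO C28 (right) over WT, from edgeR. Filled circles are from the 6 Bru-seq libraries and open triangles from the 9 libraries of both assays, and bars are standard errors. TGFA has -2.10 and -3.52 in Bru-seq, and HBEGF has 1.68 in KO C22 and -1.64 in KO C28.

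Counted by library, 5 of the 10 genes (ERBB2, ERBB3, AREG, EREG and TGFA) had both KO C22 Bru-seq libraries below both WT libraries, where 15.4% of all 22827 genes did, and all 5 were lower in BruUV-seq too (11.3% of all genes). HBEGF and EPGN had both above (13.8% of all genes), and HBEGF also in BruUV-seq (9.53%). ERBB3 and EPGN are counted here on means of only 16.6 and 3.78 reads, too few for a fold change. In KO C28, EGFR, MET, AREG and TGFA had both Bru-seq libraries below both WT libraries (17.6% of all genes), also with BruUV-seq (12.9%), and 0 of the 10 had both above (18.5%, or 12.7% with BruUV-seq). Between the clones, ERBB2 and AREG were higher in both KO C28 libraries (13.9%), also with BruUV-seq (7.42%), and EGFR, MET, HBEGF and TGFA lower (17.2%), the first 3 also with BruUV-seq (10.1%). For EGFR the BruUV-seq ratio of KO C28 to KO C22 was 0.985 (95% counting interval 0.956 to 1.01). With library totals in place of TMM, EGFR, MET and HBEGF in BruUV-seq lay higher in KO C28 than in KO C22. HBEGF alone of the 10 had both libraries of 1 clone above and both of the other below the WT mean, as had 8.45% of all genes.

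The make-up of the ligand pool was set out as each gene's share of the summed RPKM of the 6 ligands. HBEGF made up 88.6% and 86.6% in KO C22 Bru-seq and 32.1% and 31.4% in KO C28, against 20.5% and 38.6% in WT. In BruUV-seq it made up 88.9% in KO C22 and 52.4% in KO C28, against 25.7% in WT. All 3 KO C22 libraries therefore lie above every other library. EREG held 3.97% and 7.90% in KO C22 Bru-seq and 54.1% and 28.8% in KO C28, against 36.3% and 28.2% in WT, and AREG held 2.49% and 2.36% in KO C22, with 7.77% and 25.8% in KO C28, against 16.1% and 24.6% in WT. The sum itself was 6.57 and 5.41 RPKM in KO C22 Bru-seq and 2.48 and 1.34 RPKM in KO C28, against 3.49 and 7.504 RPKM in WT, so the lines overlap in the sum where KO C22 and WT are concerned. No test was run on shares.

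**Figure D3:**
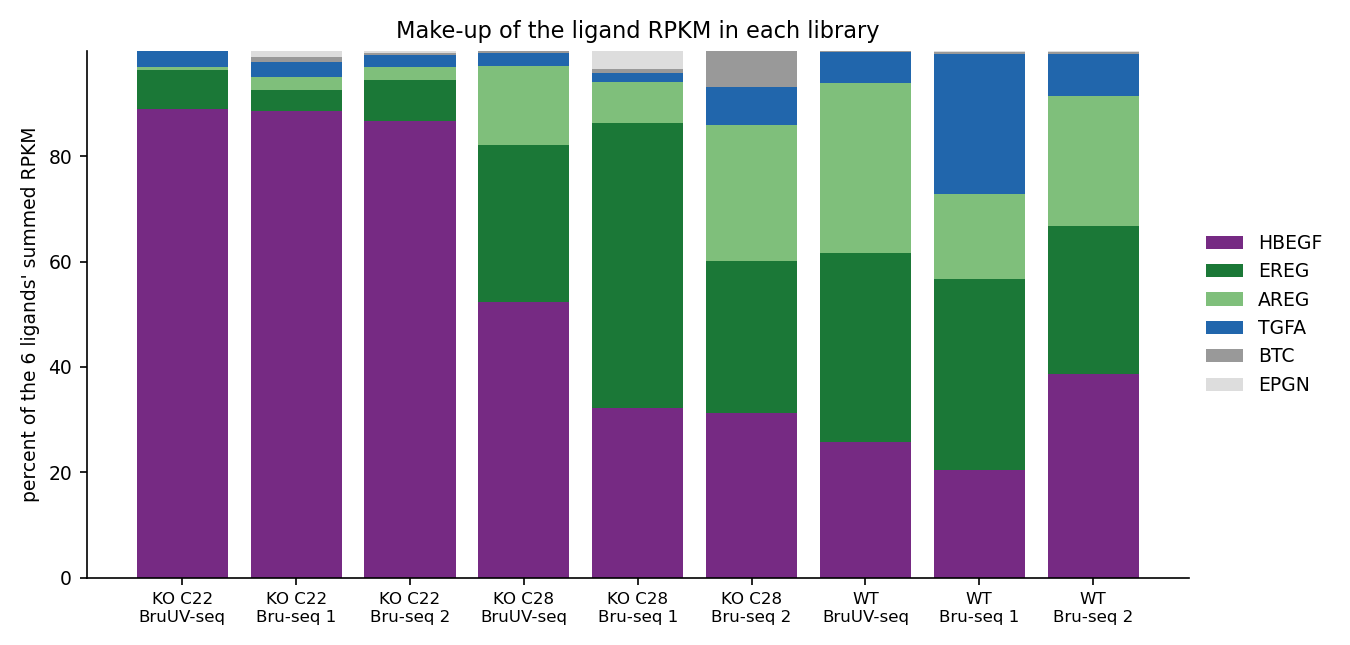
Share of each ligand in the summed RPKM of the 6 ligands (percent, stacked from 0) in each of the 9 libraries, by line from KO C22 to KO C28 to WT. HBEGF takes 86.6% to 88.9% in the KO C22 libraries and 20.5% to 52.4% in all others.

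BruUV-seq against Bru-seq was compared over the 9 libraries with line as a term. None of the 9 genes tested passed (edgeR, adjusted p below 0.05, 0.447% of all genes), and ERBB2, MET and BTC had an unadjusted p below 0.05, as did 25% of all genes. Over all genes the difference between the assays moved with gene length: the median log2 fold change was 0.61 for genes under 15 kb, where AREG and HBEGF belong, and -0.87 for genes of 150 to 250 kb, where EGFR belongs. ERBB2, at 40.7 kb, stood at 17.9, 46.2 and 25.1 CPM in BruUV-seq of KO C22, KO C28 and WT, against Bru-seq means of 5.52, 19.2 and 13.1 CPM, higher in BruUV-seq in 3 of 3 lines. Its log2 fold change was 1.30 (SE 0.38, adjusted p = 0.101, from 0.0165 to 0.449 over the other settings), against a median of -0.13 in its length class of 30 to 60 kb. Its antisense neighbour PGAP3 had 1.81 (SE 0.50, adjusted p = 0.0948).

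MET, at 126 kb, was lower in BruUV-seq in 3 of 3 lines, with a log2 fold change of -1.004 (SE 0.40, edgeR adjusted p = 0.157, from 0.0126 to 0.669 over the other settings). Its length class of 100 to 150 kb had a median of -0.69. Without Bru-seq KO C28 replicate 2 both ERBB2 (1.54) and MET (-1.18) passed, each at an edgeR adjusted p of 0.0165, in a fit that called 15% of all genes (3305 of 21986). EGFR had -0.29 (SE 0.47) and TGFA -0.81 (SE 0.45). The short ligand genes AREG, HBEGF and EREG had -0.23 (SE 0.78), -0.05 (SE 0.63) and -0.29 (SE 0.47), below the medians of 0.61, 0.61 and 0.19 of their length classes. HBEGF and EREG lay above the lower quartiles of -0.18 and -0.40 of those classes, and AREG just below -0.18.

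**Figure D4:**
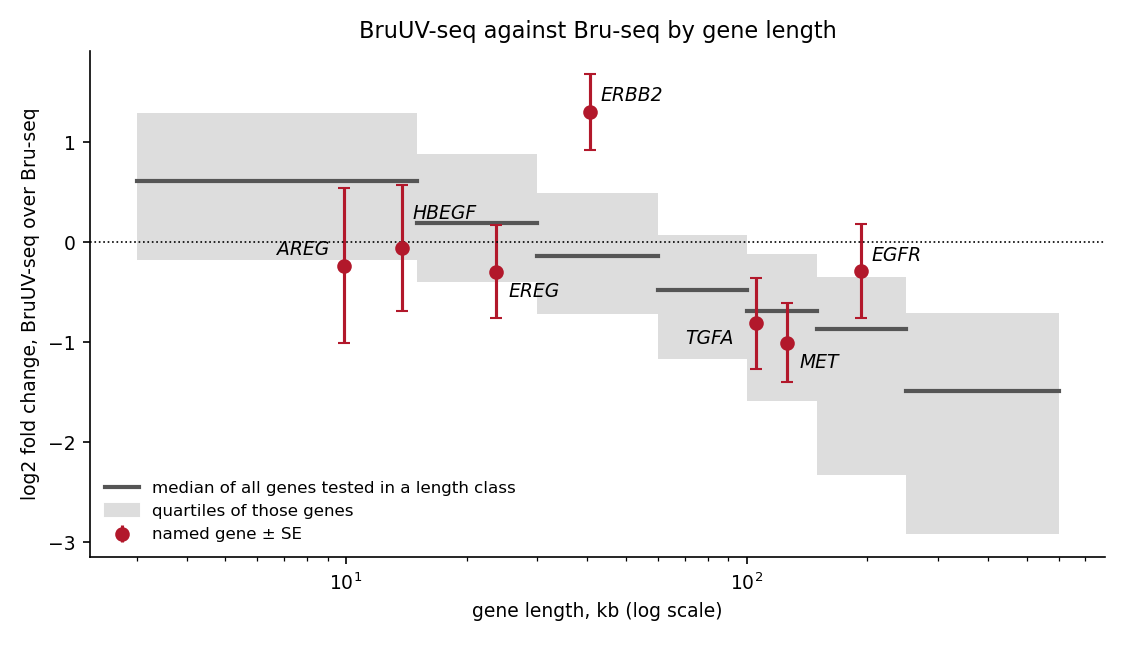
Log2 fold change of BruUV-seq over Bru-seq against gene length (kb, log axis; the outer ends of the shortest and longest classes are not drawn). Points with bars are the 7 genes ± SE, dark lines the median and grey boxes the quartiles of all genes tested in a length class. ERBB2 lies at 1.30, above the box of its class.

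The rest of the pathway was read from a list of 44 genes: other ligands, ERBB4, sheddases, signal carriers and brakes. All 44 were tested in Bru-seq and 0 passed in any comparison of lines (edgeR), with unadjusted p below 0.05 for 2 in KO C22 (2.01% of all genes), 6 in KO C28 (6.28%) and 3 between the clones (3.27%). The list's median log2 fold change was 0.15 in KO C22 and -0.45 in KO C28, against 0.07 and -0.08 over all genes. Between the clones 33 of the 44 were lower in KO C28, with a median of -0.57 against -0.01 over all genes. Without KO C28 replicate 2, the medians were -0.20 in KO C28 over WT and -0.31 between the clones, against -0.096 and -0.15 over all genes. The smallest p in KO C22 and KO C28 belonged to genes listed as brakes, and those named below were picked by p. Other brakes did not all lie lower in KO C22 Bru-seq. CBL gave 298 and 404 CPM there against 315 and 202 CPM in WT, and SPRED2 312 and 864 CPM against 419 and 666 CPM. LRIG1 lay above WT in both KO C22 libraries, while SPRY4 gave 254 and 463 CPM against 338 and 864 CPM. Whether the brakes moved as a class was not tested. DUSP6, a phosphatase of ERK, gave 9.80 and 11.3 CPM in KO C22 Bru-seq and 10.6 and 5.24 CPM in KO C28, against 45.1 and 131 CPM in WT. Its BruUV-seq values were 13.2 CPM in KO C22 and 26.5 CPM in KO C28, against 89.7 CPM in WT.

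Every KO library lies below the WT libraries of its assay for DUSP6. With both assays it had -2.98 (SE 0.54, edgeR adjusted p = 0.0638) in KO C22 and -2.84 (SE 0.55, adjusted p = 0.0947) in KO C28. Without Bru-seq KO C28 replicate 2, DUSP6 passed in KO C22 (-2.97, edgeR adjusted p = 0.0191), as did 142 of 21986 genes, and had -2.44 in KO C28 (adjusted p = 0.145). SPRY1, an inhibitor of receptor tyrosine kinase signalling, had -2.06 (SE 0.57, adjusted p = 0.332) and -2.15 (SE 0.57, adjusted p = 0.306), and the ERK phosphatase DUSP5 had -2.36 (SE 1.01) in KO C22. ERRFI1, which binds and blocks EGFR, had -2.11 (SE 0.73, adjusted p = 0.457) in KO C28. Without that library the KO C28 values were -1.82 for SPRY1 and -1.77 for ERRFI1. The WT Bru-seq replicates 1 and 2 differ widely for these brakes. They gave 119 and 1510 CPM for DUSP5, 58.5 and 219 CPM for SPRY1, and 1770 and 5672 CPM for ERRFI1. For DUSP5, KO C22 replicate 2 (236 CPM) lies above WT replicate 1. Between the clones, the EGFR inhibitor LRIG1 had -2.12 (SE 0.82), the RAS gene HRAS 2.21 (SE 0.92) and the kinase MAP2K1 -1.59 (SE 0.68) in Bru-seq, all at an edgeR adjusted p of 0.959. Without KO C28 replicate 2 these were -1.83, 0.92 and -1.07. RHBDF1, which regulates the sheddase ADAM17, was the one gene of the list that passed in BruUV-seq against Bru-seq (2.74, SE 0.44, edgeR adjusted p = 0.0374). Without Bru-seq KO C28 replicate 2, 13 of 43 passed there, in the fit that called 15% of all genes.

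Genes whose levels moved most like each of the 7 across the 9 libraries were ranked by the root mean square difference of centred log2 CPM, over 11811 genes. EGFR was nearest to GARNL3 (0.0898), C20orf194 and TMCC1, and MET to REV3L (0.0812), SCFD1 and WWP1, where the medians over all genes were 0.738 and 0.850. EGFR and MET differed from each other by 0.385. TGFA was nearest to MAP3K15 (0.456), AK4 and COL5A2, and HBEGF to CDC42EP3 (0.436), SAMD4A and TRAF1. EREG was nearest to C11orf70 (0.389), TRPM8 and PLAC8, AREG to SKAP1 (0.844), ACOXL and CDH1, and ERBB2 to PTOV1 (0.227), ARFGAP1 and G6PC3. EREG and AREG, neighbours on chromosome 4, differed from each other by 1.04. These points share library depth and scaling, and the distances are descriptions.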

How the data were processed

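Per the labels' protocols, bromouridine-bearing RNA was pulled down on antibody-coated beads, fragmented, primed at random and made into libraries. Per the submitters' processing notes, CASAVA 1.8.2, Bowtie2 2.3.3, STAR 2.5.3a and bedtools 2.16.2 were used; the notes name hg38 and GRCh38 without saying what each served for. Each library has a deposited table that holds, for 57733 genes, the authors' expected count (estimated reads over the gene body, many fractional) and their RPKM. How counting treated strand is not stated. Depth, in estimated reads in genes, was 5.64 to 31.1 M per library. The share of reads outside genes comes from the library total that counts and RPKM imply.

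Counts were rounded and tested with edgeR 4.0.16 (R 4.3.3): filterByExpr with a minimum count of 10, TMM factors, quasi-likelihood F tests, and Benjamini-Hochberg adjusted p below 0.05. One fit held the 6 Bru-seq libraries with line as the term (common biological coefficient of variation 79.3%), the other all 9 libraries with line and assay (63.4%). The fit of both assays assumes that a line differs alike in both. Standard errors rest on the spread estimated by the model. The fit of the 6 Bru-seq libraries was tested on simulated data, and the fit of both assays was not. BruUV-seq ratios between lines are of TMM-scaled counts, with exact binomial intervals at 95% that cover counting error only, since reads without molecular identifiers hold PCR copies. All 10 genes are named. Of the pathway list those that passed are named, and otherwise up to 3 per comparison with the smallest p. Neighbours lie within 100 kb with a mean of at least 10 counts, and likeness used genes with a mean of at least 100. Among the 10 genes, the fold change of a single gene is given only where its mean reached 50 reads. Neighbours did not have to reach 50, and GRB7 has a mean of 36.2 reads. The genes and lists were chosen with earlier results of these data known, and the fit of both assays was first made after those results were seen.

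Alternatives were DESeq2 1.42.0, RLE factors, no filter on low counts, limma-voom (limma 3.58.1), an offset for gene length, the replicate number as a block and leaving out each library. The pathway list without Bru-seq KO C28 replicate 2 was added after seeing the data. Replicate numbers were not taken to pair libraries: residuals of same-numbered Bru-seq libraries correlated across genes at 0.427 (KO C22 and WT), 0.00409 (KO C28 and WT) and -0.479 (KO C28 and KO C22). Promoter sequences are from RefSeq on GRCh38.p14, and gene coordinates are those of the tables.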

Additional observations from a re-analysis of the deposited data

Results flagged for a closer look

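HBEGF was singled out because the KO clones lay on opposite sides of WT in Bru-seq: both KO C22 libraries (98.8 and 99.8 CPM) stood above the WT mean of 30.3 CPM and both KO C28 libraries (12.9 and 7.44 CPM) below it. Over all 22827 genes 8.45% showed such a split. The log2 fold change of KO C28 over KO C22 was -3.33 (SE 0.78) and did not pass the edgeR quasi-likelihood test (adjusted p = 0.959). It passed in DESeq2 (-3.26, adjusted p = 0.0129), as did 53 of 22827 genes. It also passed in edgeR without a filter on low counts (-3.34, adjusted p = 0.0384), as did 12 of 39086 genes. Without KO C22 replicate 1 it was -3.37. The WT libraries differ 4.18-fold, and WT replicate 1 (11.7 CPM) lies below KO C28 replicate 1. In BruUV-seq the clones stood at 31.6 CPM in KO C28 and 35.8 CPM in KO C22, both above the 17.6 CPM of WT.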

How the results depend on the processing

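The count of genes called moved with the setting. In KO C22 against WT it was 1 in Bru-seq and 37 with both assays. DESeq2 gave 91 and 348, no filter on low counts 43 and 272, RLE factors 2 in Bru-seq, and limma-voom and the replicate block 0 each in Bru-seq. In KO C28 against WT it was 1 and 26. DESeq2 gave 205 and 711, no filter 190 and 1100, and limma-voom and the replicate block 0 in Bru-seq, with 49 under the block in both assays. KO C28 against KO C22 gave 0 and 0, DESeq2 53 and 228, no filter 12 and 230, and the length offset 2 in both assays. BruUV-seq against Bru-seq gave 93, DESeq2 3941, RLE factors 1, limma-voom 640, no filter 2326, the length offset 0 and the replicate block 903. Leaving out 1 library gave 0 to 22 and 3 to 142 genes in KO C22 against WT (Bru-seq, then both assays), 0 to 179 and 1 to 67 in KO C28 against WT, 0 to 186 and 0 to 18 between the clones, and 0 to 3305 for BruUV-seq, the highest without Bru-seq KO C28 replicate 2.

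Of the 10 genes, 0 passed in any comparison. DESeq2 called 3 in KO C22 with both assays (TGFA, EREG and AREG) and 1 each in KO C28 in both fits (TGFA). Between the clones it called 1 in Bru-seq (HBEGF) and 1 in both assays (ERBB2). For BruUV-seq it called 3 of the 9 tested (ERBB2, BTC and MET), where it called 3941 of 20819 genes. BTC has a mean of 26.2 reads, too few for a fold change. No filter called 3, 1, 1, 1 and 1 in the comparisons of lines, with HBEGF in place of ERBB2. The replicate block called 1, ERBB2 in BruUV-seq (1.70, edgeR adjusted p = 0.0415), and changed no other call of these genes. Leaving out 1 library called 0 to 1 in KO C22 with both assays, in KO C28 in Bru-seq and between the clones in Bru-seq, and 0 to 2 for BruUV-seq.

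Directions turned mostly where the value was near 0, and the cause was not tested. For EGFR in KO C22 the length offset gave -0.26 in both fits, and leaving out 1 library gave -0.23 to 0.70 in Bru-seq and -0.29 to 0.39 with both assays. MET in KO C22 in Bru-seq had -0.048 without a filter and -0.42 with the length offset, and -0.20 to 0.20 with 1 library left out (-0.31 to 0.068 with both assays). With 1 library left out, EREG between the clones in Bru-seq ran from -0.14 to 1.71, HBEGF in KO C28 with both assays from -1.58 to 0.23, and ERBB2 in KO C28 in Bru-seq from -0.34 to 0.96. For BruUV-seq over Bru-seq, EGFR had 0.54 with the length offset, AREG 0.20 in limma-voom and 0.26 with the replicate block, and HBEGF 0.25 with the block. Leaving out 1 library gave -0.56 to 0.021 for EGFR, -1.12 to 0.61 for AREG, -0.64 to 0.10 for EREG and -1.10 to 0.62 for HBEGF. With library totals in place of TMM, KO C28 over KO C22 in BruUV-seq turned to 0.20 for EGFR, 0.080 for MET and 0.042 for HBEGF. TGFA and AREG stayed below WT in both clones in every setting run. The order of the 10 genes by level was the same by RPKM and by CPM per kb. With 2 Bru-seq libraries a line and 1 BruUV-seq library, only large differences can pass, and where an arm is left with 1 library its spread is assumed to be that of the others.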

Other observations

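The other ligands of these receptors were mostly at low levels per length. In WT Bru-seq NRG2 averaged 0.882 RPKM and NRG1 0.357 RPKM, beside 0.765 RPKM for TGFA. NRG1, a ligand of ERBB3 and ERBB4, gave 319 and 441 CPM in KO C22 Bru-seq and 239 and 62.5 CPM in KO C28, against 448 and 424 CPM in WT, and 103 CPM in KO C22 and 132 CPM in KO C28, against 272 CPM in WT, in BruUV-seq. EGF (0.00262 RPKM), NRG3 (0.00331 RPKM), the MET ligand HGF (0.0430 RPKM) and the receptor ERBB4 (0.00461 RPKM) were close to 0 in WT. ERBB4 and NRG3 were highest in Bru-seq KO C28 replicate 2, at 76.7 and 109 CPM, the library with 46.5% of its reads outside genes, and were at 8.08 and 7.13 CPM in KO C28 replicate 1. Next came Bru-seq KO C22 replicate 1, at 35.4 and 28.2 CPM, against 2.70 and 0.487 CPM in KO C22 replicate 2. That library had the next highest share of reads outside genes, 20.0%.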
